A study of Arabidopsis thaliana with 12 samples.

Results

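The response to red light was examined within seedlings of rrc1-3, an Arabidopsis thaliana line in the Col-0 background that carries a mutation in RRC1. The comparison used 6 of the study's 12 libraries of rRNA-depleted total RNA. In 3 of them rrc1-3 seedlings had stayed in darkness for 4 days, and in the other 3 such seedlings had then been exposed to red light (7 µmol m-2 s-1) for 3 h. Whole seedlings were extracted, so every value is a mixture of cell types, and fewer cells of a type and less RNA per cell cannot be told apart. All 6 libraries carry the rrc1-3 mutation, and the remaining 6, Col-0 in darkness and in red light, entered only where named. The members were every entry of the authors' 2 deposited tables of this comparison. Their expression table lists 5711 genes with a q-value of at most 0.0499. Their splicing table lists 843 bins in 643 genes, each with a difference of at least 3.02 percentage points. A bin is an annotated stretch of a gene that can be kept in or left out of the mature RNA. Both tables hold only what the authors had called, so the groups differ in every entry by construction, and the counts describe these tables.

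Phytochromes are red and far-red light receptors. In a seedling raised in darkness, red light converts phytochrome B to its active form, which moves into the nucleus and removes the phytochrome-interacting factors (PIFs). The seedling then stops elongating, opens its cotyledons and builds chloroplasts. RRC1 is a serine/arginine-rich-like protein of pre-mRNA splicing that acts in phytochrome B signalling, and plants that lack it respond weakly to red light. In plants the most common form of alternative splicing is intron retention, in which an intron stays in the RNA.

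Among the 843 bins, 737 were plain introns (named I in the deposited table), 69 were introns that hold other annotated bins (Io) and 37 were parts of exons (E). Retention was the share of reads that ran across the exon-intron boundaries rather than across the spliced junction. In rRNA-depleted total RNA a retained intron and a precursor that had not yet been spliced cannot be told apart by such reads. The introns below are among those described in the results that follow. They are printed 5′ to 3′ in the direction of transcription from the RefSeq TAIR10 assembly, with the first 6 and the last 5 bases in capitals. Retention of the first 5 was higher in red light.
CA1 I002, chr3:195338-195405, minus strand: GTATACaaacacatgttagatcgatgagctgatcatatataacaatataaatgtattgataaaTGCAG
GDCH I003, chr2:14891833-14891921, plus strand: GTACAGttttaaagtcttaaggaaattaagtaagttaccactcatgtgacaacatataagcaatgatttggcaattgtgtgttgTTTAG
GGT1 I005, chr1:8269421-8269503, minus strand: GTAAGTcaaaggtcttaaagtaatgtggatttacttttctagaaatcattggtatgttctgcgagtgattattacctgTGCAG
GOX1 Io002, chr3:4821941-4822032, plus strand: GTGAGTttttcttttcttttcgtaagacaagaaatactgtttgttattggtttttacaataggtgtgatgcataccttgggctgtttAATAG
ARR11 I003, chr1:25378489-25378562, minus strand: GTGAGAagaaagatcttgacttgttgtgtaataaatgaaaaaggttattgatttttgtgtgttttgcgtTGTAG

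Retention of the next 4 introns was lower in red light. All 9 lie within coding sequence.
COL2 I001, chr3:487798-487940, minus strand: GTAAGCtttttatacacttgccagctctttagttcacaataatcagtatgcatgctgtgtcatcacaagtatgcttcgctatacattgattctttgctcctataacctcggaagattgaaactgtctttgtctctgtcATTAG
PIF7 I001, chr5:24638996-24639080, minus strand: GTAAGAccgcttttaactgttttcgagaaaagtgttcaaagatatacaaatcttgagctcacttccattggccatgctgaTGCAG
PIF7 I002, chr5:24639465-24639558, minus strand: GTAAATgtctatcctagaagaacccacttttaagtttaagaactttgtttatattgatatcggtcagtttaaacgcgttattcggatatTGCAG
CYP59 I011, chr1:20058914-20059002, plus strand: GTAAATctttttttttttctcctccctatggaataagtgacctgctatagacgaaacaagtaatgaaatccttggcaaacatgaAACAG

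The mutated gene itself was checked in each library. RRC1 and SFPS, a splicing factor of the same pathway, were absent from both tables of this comparison. Intron bin I002 of RRC1, retained in 3.88% of reads in the dark in Col-0, had 12, 2 and 10 spliced reads in the dark libraries of rrc1-3 and 3, 10 and 20 in the red light libraries. Its retention was 92.3% ± 5.30 in the dark and 93.2% ± 4.43 in red light (SD, n = 3 each), a change in log2 odds of 0.05 ± 0.61 (SE; edgeR quasi-likelihood test, Benjamini-Hochberg adjusted p = 0.993). The listed bins held 301098 to 538886 reads per library, with a median of 269 reads per bin and library, and these sums cover the listed bins and not whole libraries. The expression table gives 1 pooled FPKM per group (fragments scaled by transcript length and sequencing depth), so the spread between libraries and the depth behind those values are unknown. The labels do not say that replicates were separate cultures, so the p-values rest on a spread between libraries that may be technical.

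Of the 5711 listed genes 3595 (62.9%) were higher and 2116 (37.1%) were lower in red light per the authors' deposited table. The median log2 change was 0.47 over the 5698 genes with FPKM above 0 in both groups. A log2 change of at least 1 was seen in 1345 genes upward and in 414 downward. A change of at least 3, or 8-fold, was seen in 146 genes upward and 24 downward. Genes listed as higher had a median of 9.99 FPKM in the dark and 19.1 in red light per the authors' deposited table. Those listed as lower had 18.2 and 11.7. The genes were split by these same values, so no difference in starting level can be read from them. The gene lists below are given by counts beside these figures for all listed genes.

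The light-harvesting and photosystem genes of the nucleus, which encode the proteins that bind chlorophyll and carry electrons, rose together. The authors' deposited table listed 49 of 50 members and all 49 as higher, with a median log2 change of 2.24. Summed over those 49 genes, FPKM was 8540 in the dark and 46243 in red light per the authors' deposited table. The antenna genes of photosystem II led the list. LHCB1.4 stood at 2.1 FPKM in the dark and 824 in red light, and LHCB1.1 at 3.81 and 1436, per the authors' deposited table. LHCB2.2 rose by a log2 change of 5.79 and LHCB1.2 by 5.21 per the authors' deposited table. LHCB1 and LHCB2 genes have near-identical copies among which reads can be shared, so the values of single copies are uncertain. All 6 listed LHCA genes, the photosystem I antenna, rose by log2 changes of 1.66 to 4.79, and the 12 photosystem I subunit genes by 1.14 to 3.34, per the authors' deposited table. The 11 photosystem II subunit genes, among them those of the oxygen-evolving complex, rose by 1.41 to 3.33 per the authors' deposited table.

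Genes of carbon fixation and of photorespiration, the pathway that salvages the product of Rubisco's reaction with oxygen, also rose. The authors' deposited table listed 32 of 40 members, all higher, with a median log2 change of 1.73. RBCS1B, a small subunit of Rubisco, stood at 20.8 FPKM in the dark and 404 in red light per the authors' deposited table. FBA1, a plastid aldolase, went from 18.8 to 312 FPKM and GLDP1, the P protein of glycine decarboxylase, from 47.4 to 559, per the authors' deposited table. RBCS1A, already at 1925 FPKM in the dark, rose by a log2 change of 0.96 per the authors' deposited table. In chlorophyll synthesis 22 of 27 members were listed, 20 higher and 2 lower, with a median log2 change of 1.21. CHLH, a subunit of magnesium chelatase, and its activator GUN4 rose by log2 changes of 3.54 and 3.14, and HEMA1, which opens the tetrapyrrole pathway, by 3.01, per the authors' deposited table. The 2 lower members were PORA and PORB, protochlorophyllide oxidoreductases abundant in dark-grown seedlings, which fell by 1.65 and 0.91 on the log2 scale per the authors' deposited table. PORC, the form of green tissue, rose from 17.6 to 87.3 FPKM per the authors' deposited table.

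Plastid-encoded genes and plastid ribosomal proteins changed by smaller amounts. The authors' deposited table held 31 plastid-encoded genes, of which 29 were higher, with a median log2 change of 0.59, and the 2 lower were copies of the 16S rRNA gene. The 16S values come after rRNA depletion. All 28 listed plastid ribosomal protein genes of the nucleus were higher per the authors' deposited table, with a median of 0.48, near the median of all listed genes. Cytosolic ribosomal protein genes had 13 of 15 listed members higher and a median of 0.35 per the authors' deposited table.

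Protective genes rose most by median. Of 40 members of the flavonoid and photoprotection list the authors' deposited table held 31, all higher, with a median log2 change of 2.43. ELIP1 and ELIP2, early light-induced proteins of the thylakoid, went from 12.6 to 1325 FPKM and from 10 to 623 per the authors' deposited table. CHS, the entry enzyme of flavonoid synthesis, rose from 8.29 to 169 FPKM, and F3H, which acts later in that pathway, by a log2 change of 5.55, per the authors' deposited table. PSY, phytoene synthase of the carotenoid pathway, rose from 39.2 to 211 FPKM per the authors' deposited table. All 20 listed of 29 cold and dehydration genes were higher per the authors' deposited table, with a median of 0.70. The largest change among them was that of COR15A, at 0.0994 FPKM in the dark and 6.45 in red light per the authors' deposited table.

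Light signalling genes moved in both directions. The authors' deposited table listed 41 of 62 members, 31 higher and 10 lower, with a median log2 change of 1.67. BBX32, BBX30 and BBX31, small B-box proteins, rose by log2 changes of 7.54, 6.38 and 6.0 from under 1 FPKM each per the authors' deposited table. BBX23, another B-box gene, fell from 33.9 to 0.882 FPKM per the authors' deposited table, the largest fall of the list. HY5, a transcription factor that promotes light-dependent seedling development, rose from 18.3 to 80.6 FPKM per the authors' deposited table. All 4 SPA genes, whose products form the COP1 ubiquitin ligase complex that degrades HY5, were higher, led by SPA1 with a log2 change of 3.23 per the authors' deposited table. PHYA, the far-red receptor of dark-grown seedlings, fell by 0.96, and its nuclear import factors FHY1 and FHL by 1.90 and 1.96 on the log2 scale, per the authors' deposited table. Among 7 PIF genes PIF7 rose most, from 0.285 to 6.63 FPKM, while PIF3 and PIF6 fell by 0.54 and 2.35 on the log2 scale, per the authors' deposited table.

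The clock list had 24 of 37 members per the authors' deposited table, 22 higher and 2 lower, with a median log2 change of 1.32. The morning genes LHY and CCA1 rose from 8.68 to 48.7 FPKM and from 9.82 to 36.2, and LNK1, a coactivator that works with them, from 9.59 to 68.0, per the authors' deposited table. COL2, a CONSTANS-like gene, and CDF1, a repressor of CONSTANS, rose by log2 changes of 4.2 and 3.82 per the authors' deposited table. LUX and BOA, related factors of the evening, were the 2 lower members, with falls of 0.50 and 0.92 on the log2 scale per the authors' deposited table.

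Genes of shade and elongation growth fell. Of 35 genes known to be repressed by phytochrome or induced by shade the authors' deposited table held 32, of which 30 were lower and 2 higher, with a median log2 change of -1.36. PIL1, a PIF target used as a shade marker, went from 33.6 to 2.93 FPKM, and the homeobox gene HAT4 from 60.8 to 7.34, per the authors' deposited table. XTH15, a wall enzyme that remodels xyloglucan, had 1776 FPKM in the dark and 118 in red light per the authors' deposited table. ACS8 and ACS5, enzymes of ethylene synthesis, fell by 5.04 and 3.11 on the log2 scale per the authors' deposited table. The 2 higher members were the homeobox gene HB5, with a log2 change of 1.03, and BEE2, with 0.52, per the authors' deposited table. In the auxin and growth list 36 of 61 members were listed, 33 lower and 3 higher, with a median of -0.92 per the authors' deposited table. Of 16 SAUR genes, which respond to auxin and drive acid growth, 15 were listed, all lower by 0.32 to 1.98 on the log2 scale per the authors' deposited table. Reads of near-identical SAUR copies can be shared as well.

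Hormone and wall lists were mixed. Ethylene receptors ETR2, ERS2 and ERS1 fell by 2.36, 2.04 and 1.64 on the log2 scale, and the type-A cytokinin response regulators ARR16 and ARR7 rose by 1.83 and 1.18, per the authors' deposited table. In all, 26 of 49 cytokinin and ethylene genes were listed, 10 higher and 16 lower. The gibberellin and brassinosteroid list had 29 of 49 members, 13 higher and 16 lower, per the authors' deposited table. GA2OX1, which inactivates gibberellin, rose from 0.612 to 30.9 FPKM, and GA3OX2, which activates it, from 0.0369 to 1.86, per the authors' deposited table. The cell wall list split into 16 higher and 17 lower of 48 members, and EXPA9 fell by 2.63 while XTH32 rose by 2.58 on the log2 scale per the authors' deposited table. Of the heat shock list 6 members were higher and 2 lower of 25 per the authors' deposited table.

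Other genes with large changes belonged to none of these lists. AT5G57760 fell from 114 to 2.74 FPKM per the authors' deposited table. GRF7, a growth-regulating factor, fell from 62.5 to 3.88 FPKM and AT5G44260 from 73.9 to 4.45 per the authors' deposited table. THI2.2, a thionin, rose from 0.288 to 60.2 FPKM, AT1G60590 from 0.312 to 31.5 and AT1G48100 from 1.17 to 69.5, per the authors' deposited table. The authors' deposited table held 2 of 20 SR genes, SCL30A and SR45A, with log2 changes of 0.32 and 0.36, and 9 of 37 other splicing factors, 2 higher and 7 lower. Among these GRP7, an RNA-binding protein under clock control, went from 429 to 202 FPKM per the authors' deposited table. Of 23 mRNA surveillance genes only PCFS4 was listed. Seed storage genes, which mark the embryo's reserves, had 10 of 14 members listed, all higher, with summed FPKM of 48.3 in the dark and 79.3 in red light per the authors' deposited table. Of 16 root hair genes 1, LRX2, was listed, at 6.93 and 2.35 FPKM per the authors' deposited table. The part of these markers in the other changes was not tested.

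**Figure D1:**
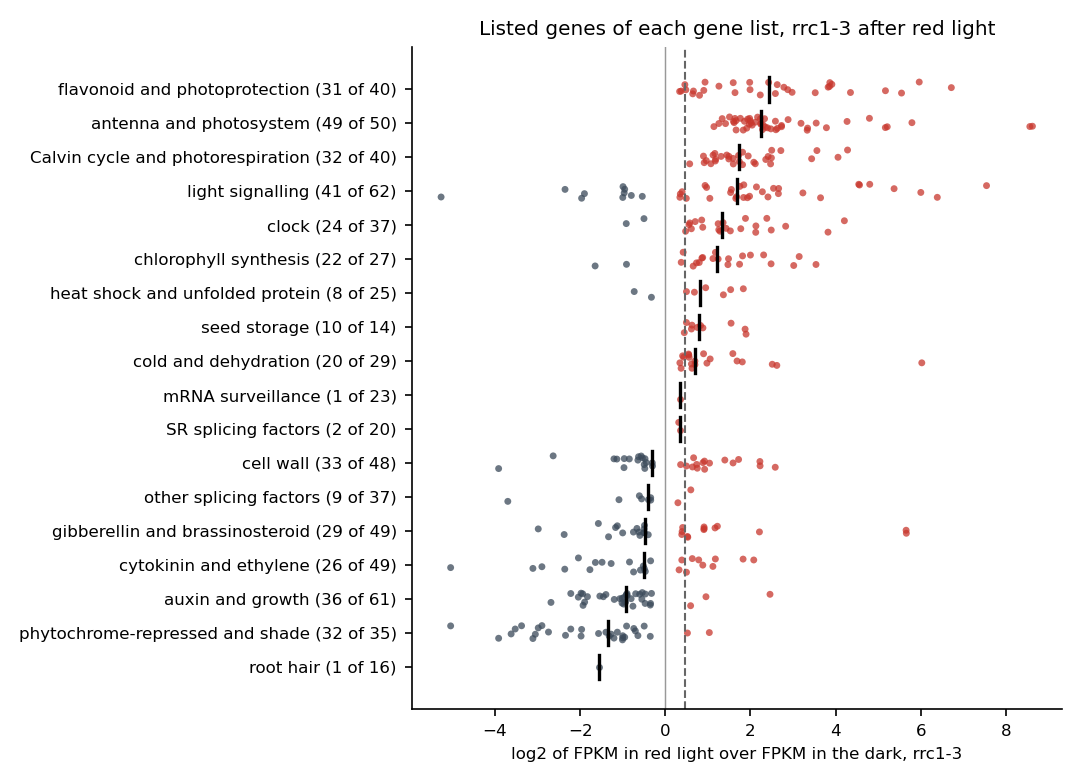
Log2 ratio of the authors' pooled FPKM in red light over that in the dark in rrc1-3 for the listed members of 18 gene lists, with 1 point per gene (red higher, dark blue lower), a bar at each list's median and a dashed line at the median of all listed genes (0.47). All 49 listed antenna and photosystem genes lie to the right of 0, and 30 of the 32 shade genes lie to the left.

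Of the 843 bins of the splicing table, 616 (73.1%) were higher in red light and 227 (26.9%) were lower. In an edgeR quasi-likelihood test of boundary or inclusion reads against spliced reads, 538 bins (63.8%) were called higher and 192 (22.8%) lower at a Benjamini-Hochberg adjusted p under 0.05. The authors had listed these bins from the same rrc1-3 libraries. Calls and p-values for the listed bins in rrc1-3, here and below, therefore describe those bins and are no independent evidence of a change. When each kind of read was scaled by its own factor, which takes out a shift common to the bins, 97 were called higher and 211 lower, and the median log2 odds moved by -0.79. The number of higher calls thus depends on that common scale, and the number of lower calls hardly changes with it. Such factors take most bins as unchanged, whereas these bins were listed for a change. The scaling can therefore remove part of the listed change itself, so a call lost under it does not show that the bin is unchanged. The 3 libraries of each condition did not overlap in 717 bins (85.1%), and an exact permutation test of 3 against 3 cannot give a p below 0.1. The median change was 4.41 points over all bins, 6.18 points over those that were higher and -8.75 points over those that were lower. Retained introns made up 826 of the bins. The others were 5 exon skipping bins, 6 alternative 5′ site bins, 1 alternative 3′ site bin and 5 with no event given.

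Over the 737 plain introns the median retention of a library was 7.25%, 8.25% and 8.62% in the dark and 10.3%, 10.6% and 11.6% in red light. The dark libraries all lay below the red light libraries, as the choice of the bins would lead to. Introns listed for genotype rather than light gave a broader view. Over 2015 intron bins in both of the authors' genotype tables, the median retention was 16%, 16.9% and 18.4% in the dark libraries of rrc1-3 and 18.0%, 18.7% and 19.5% in red light. Here the ranges of both conditions overlapped. In Col-0 it was 16.2%, 16.3% and 17.5% in the dark and 16.2%, 16.3% and 17.3% in red light. Across the 2348 bins of those tables that could be tested, edgeR called 50 (2.13%) higher and 26 (1.11%) lower in red light in rrc1-3, with a median log2 odds of 0.13. In Col-0 it called 24 (1.02%) higher and 36 (1.53%) lower, with a median of 0.05. With separate scaling the counts were 32 and 46 in rrc1-3 and 20 and 52 in Col-0. The median log2 odds moved by -0.19 in rrc1-3 and by -0.09 in Col-0.

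**Figure D2:**
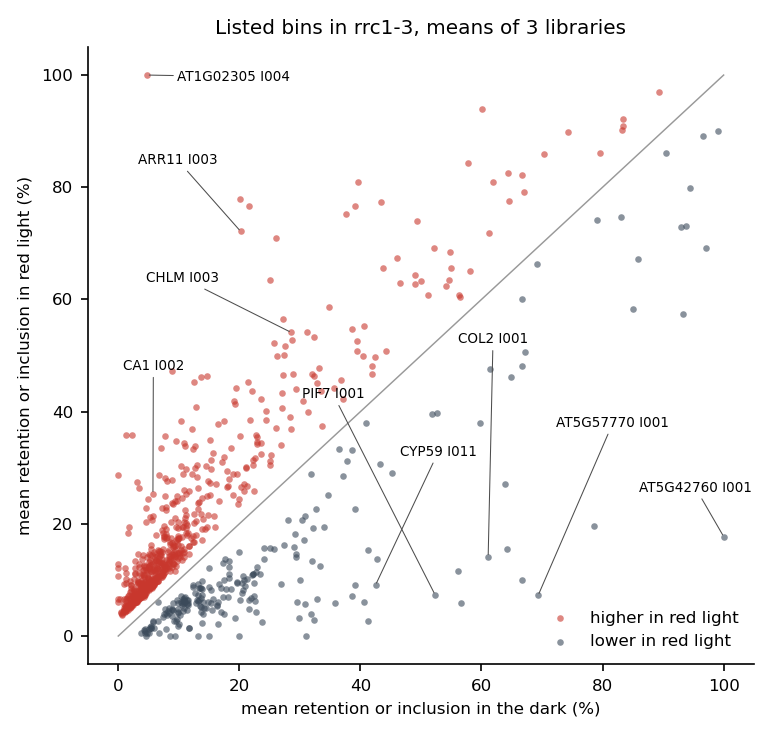
Mean retention or inclusion over the 3 dark libraries (x axis, %) and over the 3 red light libraries (y axis, %) of rrc1-3 for the listed bins with reads in every library, with 9 of them named. Red points above the diagonal line are higher in red light and dark points below it are lower, with CA1 I002, CHLM I003 and ARR11 I003 named above the line and COL2 I001, PIF7 I001 and CYP59 I011 below it.

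Bins of carbon fixation and photorespiration genes were mostly higher in red light. Of 18 such bins in 9 genes, 16 were higher and 2 lower, and edgeR called 16 higher and 0 lower. The antenna and photosystem list had 2 bins, both higher, with 0 called. Chlorophyll synthesis had 5 bins in 2 genes, 3 higher and 2 lower. The photosynthesis list of 117 genes, which joins the antenna, carbon and chlorophyll lists, had 25 bins in 13 genes, of which 21 were higher and 4 lower, and edgeR called 19 higher and 1 lower. Over all 843 bins 73.1% were higher, and edgeR called 63.8% higher and 22.8% lower. With separate scaling 14 were called higher and 2 lower. CA1, the most abundant carbonic anhydrase of the plastid, gave the clearest case. Its last intron, I002, was retained in 4.93%, 6.04% and 6.22% of reads in the dark libraries and in 22.5%, 25.5% and 28.1% in red light. The groups lay far apart, and spliced reads rose as well, from 974 to 1425 per library in the dark to 5251 to 7732 in red light. The log2 odds rose by 2.48 ± 0.19 (SE; edgeR, adjusted p = 3.99e-09). CA1 expression went from 86.0 to 483 FPKM per the authors' deposited table. CA1 had 4 listed bins, of which 3 were higher and E003 was lower. Its intron I005 went from a mean of 1.00% ± 0.0697 to 4.72% ± 0.355 (SD, n = 3 each).

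CA2, a cytosolic carbonic anhydrase that was not listed for expression, changed in the same direction at 3 bins. Its intron I004 was retained in 0.510%, 1.19% and 1.22% of reads in the dark and 4.01%, 4.57% and 5.19% in red light. No dark library reached the red light values, and the log2 odds rose by 2.35 ± 0.25 (SE; edgeR, adjusted p = 4.02e-07). Spliced reads over this intron numbered 21334 to 25805 per library in the dark and 13420 to 22262 in red light.

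The glycine decarboxylase complex splits glycine in leaf mitochondria, and GDCH encodes its H protein. GDCH I003 was retained in 2.24%, 2.46% and 3.01% of reads in the dark and 7.58%, 8.64% and 9.09% in red light, without overlap, with a log2 odds of 1.79 ± 0.19 (SE; edgeR, adjusted p = 3.97e-07). The other 2 introns of GDCH were also higher. The shared L protein of that complex is encoded by mtLPD1, whose intron I002 lies in the 3′ UTR. It was retained in 9.60%, 14% and 14.9% of reads in the dark and 37.9%, 41.1% and 43.4% in red light, with a log2 odds of 2.21 ± 0.21 (SE; edgeR, adjusted p = 8.00e-08). SHM1, the mitochondrial serine hydroxymethyltransferase that works with the complex, had I004 at a mean of 1.94% ± 0.320 in the dark and 4.99% ± 0.409 in red light (SD, n = 3 each).

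Peroxisomal steps behaved alike. GGT1, glutamate:glyoxylate aminotransferase, had its intron I005 retained in 2.34%, 2.57% and 2.54% of reads in the dark and 6.32%, 6.55% and 6.95% in red light. The 2 groups were narrow and separate, with a log2 odds of 1.48 ± 0.19 (SE; edgeR, adjusted p = 3.64e-06). GOX1, glycolate oxidase, had Io002 at 2.89%, 3.44% and 3.86% in the dark and 11.6%, 9.86% and 15.6% in red light, with a log2 odds of 1.98 ± 0.24 (SE; edgeR, adjusted p = 1.62e-06). All 3 red light libraries exceeded all dark ones. BOU, a mitochondrial carrier needed for photorespiration, had I002 in the 5′ UTR at 5.92% ± 1.59 in the dark and 12.4% ± 2.53 in red light (SD, n = 3 each; edgeR, log2 odds 1.19, adjusted p = 9.16e-04). With separate scaling its log2 odds was 0.40 and the call was lost (edgeR, adjusted p = 0.234). Expression of GGT1, GOX1, BOU and SHM1 rose 3.51-fold to 5.55-fold per the authors' deposited table.

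Electron transport and chlorophyll genes had further bins. CHLM, the magnesium protoporphyrin methyltransferase, had its 3′ UTR intron I003 retained in 27.9%, 30.8% and 27.0% of reads in the dark and 53.3%, 53.3% and 55.7% in red light. No library came near the other group, and the log2 odds was 1.56 ± 0.17 (SE; edgeR, adjusted p = 7.18e-07). All 4 listed introns of PnsL1 and all 4 of PGR5-LIKE A were higher, in genes of the plastid NDH complex and of cyclic electron flow. Their dark means lay between 4.59% and 10.5% for PnsL1 and between 0.952% and 4.70% for PGR5-LIKE A, and their red light means between 20.4% and 27.7% and between 4.49% and 9.0%. PSY went the other way. Its Io006, a 5′ UTR intron, fell from 20.9%, 17.6% and 22.7% to 10.1%, 9.70% and 8.57%, with a log2 odds of -1.30 ± 0.20 (SE; edgeR, adjusted p = 3.93e-05). RBCS1B I001 and PSBS E004, also listed, did not pass the edgeR test (adjusted p = 0.127 and 0.0882).

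Clock genes moved against the majority of bins. Of 14 bins in 9 clock genes 12 were lower in red light and 2 higher, and edgeR called 11 lower and 2 higher, against 22.8% of all bins called lower. With separate scaling 12 were called lower and 0 higher. The single intron of COL2 was retained in 57.4%, 65.3% and 60.7% of reads in the dark and in 15.6%, 13.1% and 13.7% in red light. Each red light library lay far below each dark one, with a log2 odds of -3.27 ± 0.23 (SE; edgeR, adjusted p = 2.43e-09). Boundary reads of COL2 numbered 48.5 to 69.5 per library in the dark and 114 to 146 in red light, while spliced reads numbered 36 to 37 and 615 to 914. Reads of both kinds thus rose, and the spliced ones rose more. The intron overlaps AT3G02370, a gene on the opposite strand. No strand of the libraries is stated, so boundary reads of the 2 genes cannot be told apart.

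The single intron of CDF1 went from 100%, 73.3% and 62.5% to 22.4%, 22.5% and 13.8%, with 0 to 3 spliced reads per dark library and 59 to 109 in red light. The dark values were scattered but all above those in red light, with a log2 odds of -3.76 ± 0.79 (SE; edgeR, adjusted p = 5.98e-04). LNK2, another coactivator of the morning genes, had I007 retained in 25.3%, 35% and 26.9% of reads in the dark and 13.5%, 16.8% and 17.5% in red light (edgeR, log2 odds -1.13 ± 0.28 SE, adjusted p = 0.00158). Both groups stayed apart. LNK1 exon bin E007, an exon skipping event of 130 nt, was included in 65.6%, 76.6% and 58.1% of reads in the dark and 48.8%, 49.5% and 46.0% in red light (edgeR, log2 odds -1.17 ± 0.24 SE, adjusted p = 5.34e-04). Lower inclusion of this exon again separated the groups.

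Other clock bins were looked up after their values were seen. LHY I012, in the 5′ UTR, fell from 17.8% ± 3.27 to 8.32% ± 1.36, and CCA1 Io004 from 25.7% ± 0.781 to 15.5% ± 2.76 (SD, n = 3 each; edgeR, adjusted p = 0.00168 and 0.00145). ELF3 I002, in a gene of the evening complex, fell from 34.6% ± 4.88 to 25.1% ± 1.75 (SD, n = 3 each; edgeR, adjusted p = 0.00531). The 2 bins that rose were RVE4 I009 in the 3′ UTR, from 2.59% ± 0.545 to 5.81% ± 1.08, and LNK4 Io008, from 6.81% ± 0.269 to 11.1% ± 2.69 (SD, n = 3 each; edgeR, adjusted p = 1.92e-04 and 0.0136). With separate scaling the log2 odds of LNK4 Io008 was -0.03 and neither was called (edgeR, adjusted p = 0.939 for LNK4 and 0.0832 for RVE4).

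Light signalling genes had 7 bins in 5 genes, 3 higher and 4 lower, all called by edgeR. Over all 843 bins edgeR called 63.8% higher and 22.8% lower. With separate scaling 1 was called higher and 4 lower. PCH1, which binds phytochrome B and stabilises its active form, had 2 overlapping bins that moved in opposite directions. Retention of Io001, the longer 5′ UTR intron, was 10.1%, 12% and 10.6% in the dark and 40.3%, 32.4% and 30.5% in red light (edgeR, log2 odds 2.06 ± 0.34 SE, adjusted p = 7.86e-05). That of I002, which ends at the same base and starts further downstream, was 100%, 80.0% and 100% in the dark and 56.0%, 55.3% and 61.1% in red light (edgeR, log2 odds -2.69 ± 0.82 SE, adjusted p = 0.00611). Spliced reads of I002 numbered 0, 3 and 0 in the dark libraries and 44, 36 and 35 in the red light libraries, so use of its inner donor was seen almost only after light. Both bins share the acceptor boundary. Reads spliced from the outer donor did not count as spliced reads of I002. Its percentages thus set the inner splice against boundary reads alone, and they give no share of all PCH1 RNA.

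PIF7, a factor that promotes elongation in shade, had 2 introns that were retained less in red light. I001 went from 63.6%, 53.3% and 40% to 6.94%, 8.50% and 6.67% and I002 from 66.7%, 41.2% and 84.6% to 12.5%, 16.1% and 17.8%. No values overlapped (edgeR, log2 odds -3.87 and -3.27, adjusted p = 8.93e-05 and 5.39e-04). The dark values rest on few reads, with 2 to 7 spliced reads over I001 per dark library against 154 to 161 in red light. RPT2, a phototropism gene, had exon bin E005, a retained intron, at 52.2% ± 4.14 in the dark and 69.2% ± 0.389 in red light (SD, n = 3 each; edgeR, log2 odds 1.04, adjusted p = 1.01e-04), and with separate scaling the log2 odds was 0.24 (edgeR, adjusted p = 0.217). BBX19, a B-box protein that represses flowering, included E006, a stretch beside an alternative 5′ site, in 24.3%, 27.1% and 30.5% of reads in the dark and 15.4%, 14.9% and 18.4% in red light (edgeR, log2 odds -0.94 ± 0.28 SE, adjusted p = 0.00543).

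Splicing factor genes had 6 bins in 4 genes, all lower in red light and all called by edgeR, with and without separate scaling. Over all 843 bins 26.9% were lower and edgeR called 22.8% lower. CYP59, a cyclophilin with an RNA recognition motif, had 3 neighbouring introns among them. I011 was retained in 43.7%, 41.3% and 42.5% of reads in the dark and 8.33%, 9.43% and 9.57% in red light, with a log2 odds of -2.81 ± 0.34 (SE; edgeR, adjusted p = 2.04e-06). I010 went from 41.3% ± 6.58 to 15.3% ± 2.16 and I009 from 26.9% ± 2.76 to 9.25% ± 6.32 (SD, n = 3 each). The change lay in the boundary reads of I011, at 64.5 to 72.5 per dark library and 6 to 9 in red light, whereas spliced reads numbered 83 to 103 and 66 to 85. PTB2, a polypyrimidine tract-binding protein that regulates exon use, included its 58 nt exon E009 in 31.8%, 29.7% and 35.2% of reads in the dark and 21.6%, 20.7% and 15.2% in red light (edgeR, log2 odds -1.01 ± 0.21 SE, adjusted p = 5.64e-04). In SCL30A, an SR-like factor, I003 went from 25% ± 5.49 to 15.7% ± 2.32, and in PRP39A, a U1 snRNP component, Io015 went from 30.3% ± 0.385 to 20.6% ± 3.87 (SD, n = 3 each).

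**Figure D3:**
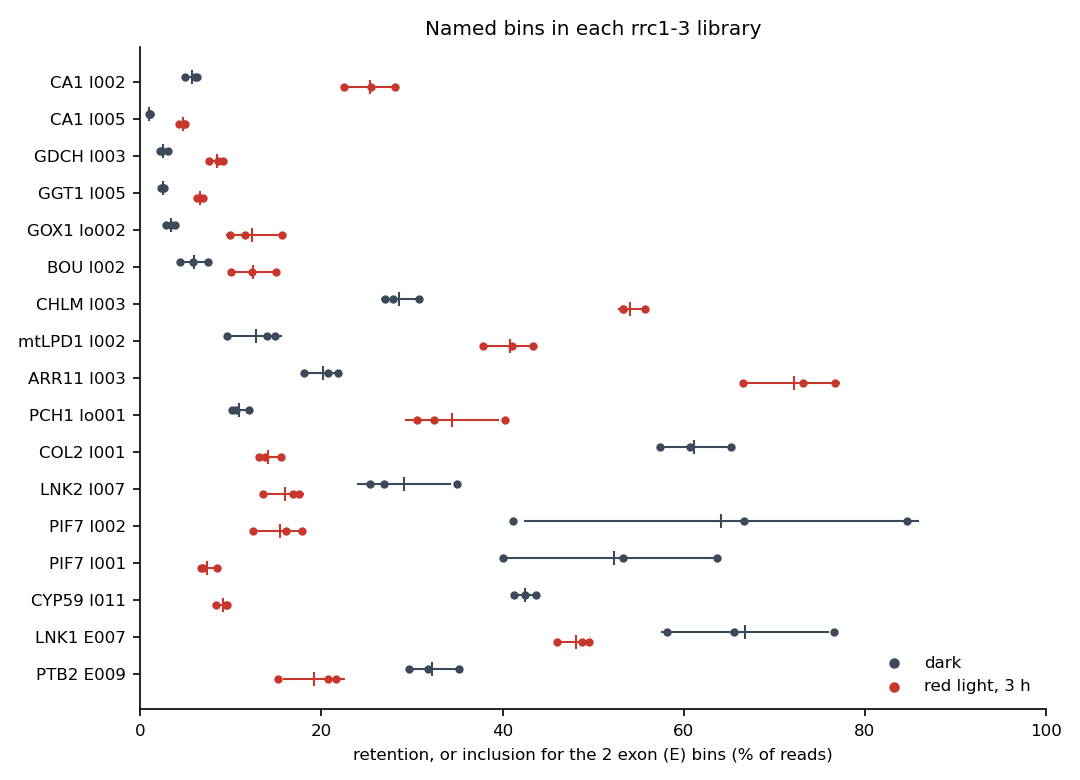
Retention (or inclusion, for the 2 E bins) in percent of reads for 17 named bins of rrc1-3, with 1 point per library, dark libraries in blue and libraries after 3 h of red light in red, a tick at the mean and a line of 1 SD to each side. The first 10 bins, from CA1 I002 to PCH1 Io001, lie further right in red light and the other 7 lie further left. The libraries of the 2 conditions do not overlap in any of the 17. The same holds for 717 of all 843 listed bins (85.1%), which were listed because these groups differ.

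ARR11, a type-B response regulator of cytokinin signalling, changed along the whole gene. All 4 of its listed introns were retained more in red light, by 38.3 to 54.9 points, and its expression went from 1.14 to 10.9 FPKM per the authors' deposited table. I003 rose from 18.1%, 20.7% and 21.9% to 66.5%, 73.2% and 76.7% (edgeR, log2 odds 3.37 ± 0.30 SE, adjusted p = 2.88e-08), and I004 from 14.7%, 26.1% and 24.2% to 69.1%, 74.3% and 86.3% (edgeR, log2 odds 3.64 ± 0.37 SE, adjusted p = 2.38e-07). Spliced reads across I003 were 59 to 90 per dark library and 58 to 72 in red light, and boundary reads 16.5 to 23.5 and 143 to 191. The gain thus lay in boundary reads, with about the same number of spliced reads. Across all bins, 131 genes had at least 2 bins, and in 117 of them all bins moved in 1 direction. BGLU8, a beta-glucosidase gene, had 6 bins, all higher.

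Cell wall genes had 5 bins in 3 genes, all higher, and all called by edgeR, of which 3 were introns of XTH7, a xyloglucan enzyme. Over all 843 bins 73.1% were higher and edgeR called 63.8% higher. XTH7 I002 was retained in 0.819%, 1.01% and 0.990% of reads in the dark and 5.91%, 6.76% and 4.53% in red light (edgeR, log2 odds 2.67 ± 0.36 SE, adjusted p = 7.38e-06). With separate scaling 4 of the 5 cell wall bins were called higher, and XTH28 I001 had a log2 odds of -0.01 (edgeR, adjusted p = 0.98). CTR1, the kinase that represses ethylene responses, had 2 introns that were lower. Its I011 fell from 17.6%, 22% and 27.3% to 9.17%, 10.4% and 13.8% (edgeR, log2 odds -1.18 ± 0.24 SE, adjusted p = 4.00e-04).

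Exon events were few. RNS2, a ribonuclease that recycles ribosomal RNA, included the 4 nt bin E005 in 50.8%, 80.9% and 48.5% of reads in the dark and 95.2%, 89.6% and 96.9% in red light (edgeR, log2 odds 3.19 ± 0.50 SE, adjusted p = 3.93e-05). The gene emb2737 included E008 in 97.8%, 100% and 99.4% in the dark and 90.2%, 88.1% and 91.8% in red light (edgeR, log2 odds -3.62 ± 0.45 SE, adjusted p = 2.48e-06). In both the groups were separate. PnsB4, a subunit of the plastid NDH complex, had the only alternative 3′ site bin, E003 of 3 nt, included in 63.0%, 64.5% and 56.7% in the dark and 52.4%, 45.1% and 45.2% in red light (edgeR, log2 odds -0.81 ± 0.19 SE, adjusted p = 0.00137). At alternative 5′ sites GBF3 E010 fell from 66.8% ± 1.88 to 60.1% ± 3.5 and APX1 E009 from 37.7% ± 3.06 to 31.1% ± 1.1, while EMB3114 E002 rose from 51.1% ± 4.13 to 60.8% ± 3.65 (SD, n = 3 each; edgeR, adjusted p = 0.0309, 0.0227 and 0.0113). Each of these 3 lost its call without at least 1 library (adjusted p of 0.0509 to 0.109 in edgeR), and EMB3114 had a log2 odds of -0.22 with separate scaling. LIF2 E004, PPDK E018 and AT5G66180 E004 overlapped between the groups and did not pass the edgeR test (adjusted p = 0.0807, 0.568 and 0.121).

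The introns were compared by their features as a description. Of 799 bins matched to an annotated intron, 590 were higher and 209 lower in red light. The share that was the first intron of its transcript was 35.9% among the higher and 23.4% among the lower. It was 21.8% among all 131120 annotated introns and 17.7% among the 5432 annotated introns of the host genes. Introns in 5′ UTRs made up 16.9% and 7.18%, against 6.97% of all and 8.25% of those of the host genes. Of 115 listed 5′ UTR introns 100 were higher. The donor GTAAGT was found at the first 6 bases of 7.97% of the higher and 15.3% of the lower introns, against 9.08% of all. In a window that ends 3 bases before the intron's end the median share of pyrimidines was 58.8% for the higher, 64.7% for the lower and 64.7% for all. Of the introns printed above, GGT1 I005 carries that donor and the other 8 do not. Median lengths were 104.5 nt, 111 nt and 101 nt, and GC content was 32.8%, 33.1% and 32.8%.

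Retention and expression of the host gene were set side by side. Of the 643 genes with a bin 312 (48.5%) were listed for expression, 231 higher and 81 lower. Of intron bins with higher retention 35.2% lay in genes whose expression was listed higher, 12.7% in genes listed lower and 52.1% in genes not listed. For bins with lower retention these shares were 44.5%, 12.4% and 43.1%. Over 405 intron bins in genes listed for expression, the log2 change of the gene and the change in points had a Spearman rho of -0.16 across bins, which share the same libraries. In the carbon fixation and photorespiration list all 32 listed genes were higher in expression per the authors' deposited table, and 16 of its 18 bins were higher and 2 lower. In the clock list 22 of 24 listed genes were higher in expression per the authors' deposited table, and 12 of its 14 bins were lower and 2 higher. CYP59 stood out, since its FPKM fell from 2.27 to 0.175 per the authors' deposited table while its spliced reads over I011 were 83 to 103 per dark library and 66 to 85 in red light.

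The same bins could be followed in Col-0 for 73 of the 843, those that the authors' 2 genotype tables also hold. These 73 had differed between genotypes in both conditions, so they are no random sample of the response. In 69 of them the log2 odds had the same sign in Col-0 as in rrc1-3. Over the Col-0 libraries, which the choice of the light bins did not use, edgeR called 10 (13.7%) higher and 7 (9.59%) lower, all 17 in the direction seen in rrc1-3. Over all 2348 bins of the same Col-0 fit it called 24 (1.02%) higher and 36 (1.53%) lower. For the 73 bins the median absolute log2 odds was 1.01 in rrc1-3 and 0.73 in Col-0. The rrc1-3 value comes from libraries that chose the bins, and the Col-0 value does not.

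CHLM I003 rose from 13.0%, 11.7% and 13.6% to 42.0%, 42.4% and 45.2% in Col-0, with a log2 odds of 2.38 ± 0.15 (SE; edgeR, adjusted p = 1.04e-09). In rrc1-3 the same intron started from 28.6% ± 1.97 in the dark (SD, n = 3). PSY Io006 fell from 7.99%, 7.75% and 9.84% to 4.13%, 3.55% and 3.23% in Col-0, and its log2 odds of -1.29 there lay beside -1.30 in rrc1-3 (edgeR, adjusted p = 3.84e-04 in Col-0). LNK2 I007 fell from 32.9%, 31.3% and 34.1% to 23.6%, 21.6% and 17.6% in Col-0 (edgeR, log2 odds -0.87 ± 0.20 SE, adjusted p = 0.0165), and PCH1 Io001 rose from 3.80% ± 1.1 to 16.6% ± 2.49 (SD, n = 3 each; edgeR, adjusted p = 1.55e-04).

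The difference between the responses was tested as an interaction of genotype and light. Among the 73 bins edgeR called 0 (0.0%) at an adjusted p under 0.05, with 12 at an unadjusted p under 0.05 (9 with a larger log2 odds in rrc1-3 and 3 with a smaller one). The adjustment ran over the 2348 bins of both genotype tables. The rrc1-3 libraries in this test also chose the 73 bins, and the genotype tables hold only bins that differed between genotypes. The p-values, the 9 and 3 bins and the counts of calls are therefore not free of that choice. DESeq2 and limma also called 0. A fit on the 73 bins alone, chosen after seeing the data, called 6 (edgeR, adjusted p from 0.00308 to 0.0114). Of these CAF2 I001, APX1 Io012 and PnsB4 E004 had a larger log2 odds in rrc1-3, and CHLM I003, CHLM Io003 and AT5G57770 I001 a smaller one. The smallest adjusted p was 0.0641, at CAF2 I001. CAF2 encodes a factor for splicing of plastid introns, and its own intron I001 was retained in 2.85%, 4.09% and 5.70% of reads in the dark and 9.27%, 8.94% and 7.48% in red light in rrc1-3. In Col-0 it was retained in 6.79%, 10.8% and 12.7% in the dark and 4.00%, 5.90% and 5.57% in red light. The groups did not overlap in either genotype, and the directions were opposite, with an interaction of 2.06 ± 0.44 in log2 odds (SE). In rrc1-3 its log2 odds rose by 1.08 (edgeR, adjusted p = 0.00270), and with separate scaling it was 0.29 (edgeR, adjusted p = 0.486). APX1 Io012, in the 5′ UTR of cytosolic ascorbate peroxidase, went from 79.6% ± 2.22 to 86.2% ± 2.28 in rrc1-3 and stood at 86.8% ± 8.34 and 72.9% ± 5.63 in Col-0 (SD, n = 3 each), with an interaction of 1.85 ± 0.44 (SE; edgeR, adjusted p = 0.0730). In rrc1-3 its log2 odds rose by 0.68 (edgeR, adjusted p = 0.0115). With separate scaling it was -0.12 (edgeR, adjusted p = 0.705), and the call was lost with DESeq2 (adjusted p = 0.0515) and without the first dark library (edgeR, adjusted p = 0.0519). PnsB4 E004 fell in both genotypes, from 85.1% ± 1.77 to 58.3% ± 3.08 in rrc1-3 and from 98.7% ± 1.65 to 76.8% ± 2.70 in Col-0 (SD, n = 3 each; edgeR, interaction 2.64, adjusted p = 0.0730). Without the first Col-0 dark library CAF2 I001 and APX1 Io012 were called (edgeR, adjusted p = 0.0175 and 0.00363), without the third dark library of rrc1-3 CAF2 I001 was called, and without the third red light library of rrc1-3 CAF2 I001 and AT5G57770 I001 were called (edgeR, adjusted p = 0.0310, 0.0322 and 0.0309). A p above the threshold does not show that the genotypes respond alike.

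**Figure D4:**
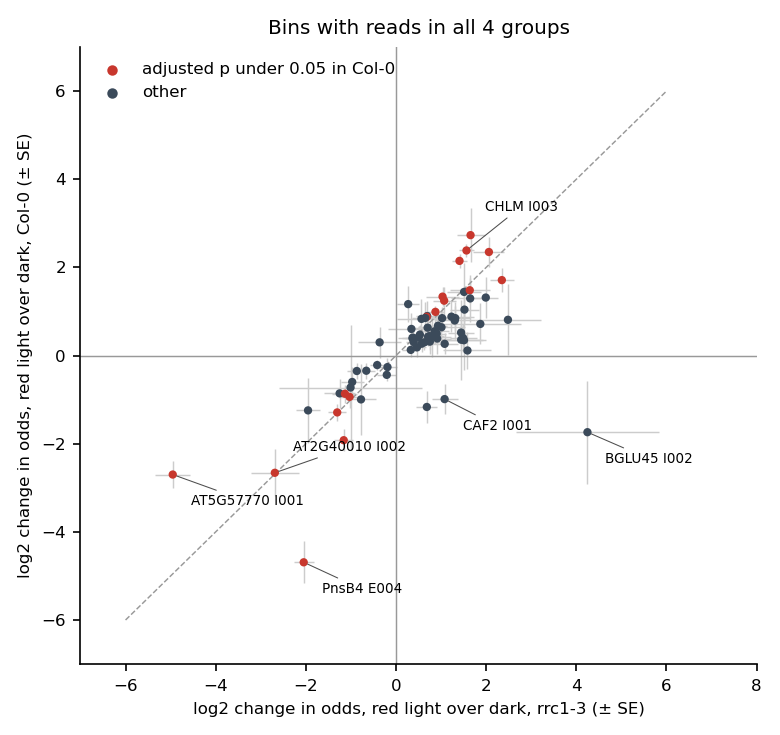
Log2 change in the odds of retention or inclusion, red light over dark, in rrc1-3 (x axis) and Col-0 (y axis) for the 73 bins with reads in all 4 groups, with lines of 1 SE and a dashed line of equal change. The 17 red points passed the edgeR test in Col-0 and lie in the same quadrant as in rrc1-3, while 4 bins, CAF2 I001 and BGLU45 I002 among them, have opposite signs.

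Bins near other genes whose expression changed were counted, since no strand of the libraries is stated and reads of overlapping genes cannot then be told apart. Another annotated gene overlapped 51 bins, COL2 I001 and both PCH1 bins among them. A gene listed for expression overlapped 7 bins, each on the opposite strand, and all 7 bins moved in the direction of that gene. Within 500 nt there were 53 pairs of a bin and another listed gene, and in 44 of them both moved in the same direction. With a neighbour that changed by a log2 of at least 1 there were 27 pairs, 22 in the same direction. Over all entries 73.1% of bins and 62.9% of listed genes were higher, so unrelated entries would often agree as well. Some genes entered repeatedly, such as AT5G66180 with STR18. AT5G57770 I001 lies 63 nt from AT5G57760, the gene that fell from 114 to 2.74 FPKM per the authors' deposited table. It was retained in 69.2%, 63.5% and 75.4% of reads in the dark and 3.14%, 6.51% and 12.1% in red light, with a log2 odds of -4.95 ± 0.39 (SE; edgeR, adjusted p = 5.09e-09). In Col-0 the same bin fell from 47.4% ± 3.56 to 12.5% ± 1.25 (SD, n = 3 each). ROPGEF11 I001 lies 488 nt from PSAH2, a photosystem I gene, and rose from 37.6% ± 9.33 to 75.2% ± 14.3 (SD, n = 3 each). UP6 I001 lies 283 nt from HCF173, a photosystem II assembly factor, and rose from 13.7% ± 2.28 to 46.2% ± 4.09, and ATSMC2 I019 lies 279 nt from LHCA4 and rose from 4.91% ± 2.03 to 24.5% ± 5.14 (SD, n = 3 each). AT1G76110 I001 moved against its neighbour PETE1, on the same strand, by -25.1 points. The part of neighbouring transcription in these values was not tested.

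**Figure D5:**
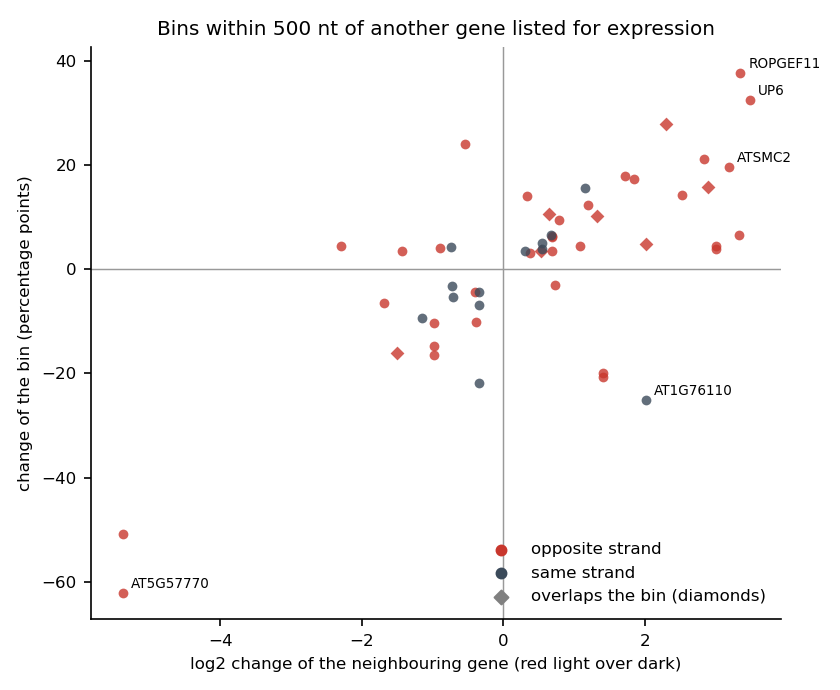
Change of a bin in percentage points (y axis) against the log2 change in pooled FPKM of another listed gene within 500 nt (x axis) in rrc1-3, for 53 pairs, with red for the opposite strand, dark blue for the same strand and diamonds where the gene overlaps the bin. In 44 pairs both values have the same sign, and AT5G57770 lies far to the lower left.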

How the data were processed

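Per the submitters' processing notes, reads were aligned with TopHat2 to TAIR10, with no versions given, and the counter is not given in the sources used here. The authors deposited 1 pooled FPKM per group, the log2 ratio and p-values and q-values for genes they called, in a Cuffdiff-like layout. For splicing the authors deposited read counts per library at the 2 boundaries and across the spliced junction of each bin, the group's fraction retained or included, its difference (a score, dark minus red light, turned here), and a log2 change, p-value and FDR of the bin. The fraction was recomputed within 1e-06 in 842 of 843 bins.

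The expression tables hold no values per library, so expression was described from the deposited values with no test. Junction reads were tested with edgeR 4.0.16 (quasi-likelihood, library as a block, TMM on total reads, bins with a mean of at least 5 reads) in R 4.3.3, with boundary means rounded to whole counts, and p-values were adjusted by Benjamini-Hochberg over all bins fitted. Col-0 and interaction fits used the 2348 bins of both genotype tables that passed the filter. DESeq2 1.42.0 and limma 3.58.1 (0.5 reads added) were alternatives. The test was tried on simulated data. Libraries are numbered from a running index in the column names, read as the replicate number although no label says so. Outside the replicate block these numbers were used only to name libraries. Of the listed genes 5667 of 5711 matched the RefSeq table, and 799 bins matched an annotated intron, 791 of them GT to AG. No column of per-sample values was left unused in the tables read.

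The genes and lists were chosen with earlier results of these data known. The seed storage list leaves out AT1G09340, a chloroplast RNA-binding protein gene that shares the symbol CRB with a cruciferin, which was removed after its value was seen. The rule for names took the 8 strongest rises and falls of nuclear genes whose mean FPKM exceeded the median, and up to 4 members per list. For bins it took the 8 smallest deposited adjusted p, the 4 largest differences per direction and event class with a median of at least 20 reads, up to 4 bins of each of 4 lists, and up to 8 with the smallest interaction p. Genes named beyond this rule, such as RBCS1A, PORC, PHYA, PIF3 and ARR7, and bins of LHY, CCA1, ELF3, LNK4, RVE4, CA2, SHM1, RPT2, SCL30A, PRP39A, PSY, XTH7, XTH28, CTR1, PnsL1, PGR5-LIKE A, BGLU8 and of genes beside other listed genes were chosen after their values were seen. Red light against dark in Col-0 expression was not analysed here.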

Additional observations from a re-analysis of the deposited data

Results flagged for a closer look

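CAF2 I001 moved in opposite directions in the 2 genotypes, and every library of 1 condition lay apart from every library of the other in both. Its retention rose from 4.21% ± 1.43 to 8.56% ± 0.950 in rrc1-3 and was 10.1% ± 3.03 in the dark and 5.16% ± 1.02 in red light in Col-0 (SD, n = 3 each). The interaction was 2.06 in log2 odds with an unadjusted p of 5.46e-05 in the edgeR fit across all bins and an adjusted p of 0.0641. The same rrc1-3 libraries had led to the listing of this bin, so these p-values are not free of that choice. The intron had 8 to 17 boundary reads per dark library and 42.5 to 44 per red light library in rrc1-3. With each kind of read scaled separately, the change within rrc1-3 was 0.29 (edgeR, adjusted p = 0.486).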

How the results depend on the processing

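In rrc1-3 the counts of 538 higher and 192 lower bins stayed within 1.5 times under DESeq2, limma, other size factors and other read minimums, and were 464 to 515 and 166 to 185 when 1 library was left out. Scaling each kind of read separately, chosen after seeing the data, gave 97 higher and 211 lower, and the cause was not tested. In that setting APX1 Io012 had a log2 odds of -0.12, EMB3114 E002 -0.22, LIF2 E004 -0.26 and PPDK E018 -0.53, all against their sign in the main scaling. PPDK E018 was at -0.12 without the first dark library and at 0.55 without the second. In Col-0, where 10 bins were called higher and 7 lower, DESeq2 called 4 lower, limma 4 higher and 2 lower, and a fit on the 73 shared bins alone, also chosen after seeing the data, 23 higher and 11 lower. Leaving out 1 library gave 7 to 10 and 5 to 7. For the interaction, with 0 calls, that fit gave 3 higher and 3 lower, and leaving out 1 library gave 0 to 2 higher and 0 to 1 lower. With the replicate block the counts were 546 and 192 in rrc1-3, 9 and 8 in Col-0, and 2 and 0 for the interaction (CAF2 I001 and APX1 Io012), and no call of the 46 named bins changed. Deviations of same-numbered libraries correlated at 0.05 to 0.06 in rrc1-3 and -0.04 to 0.04 in Col-0. Each rrc1-3 library correlated best with its own number, and its other pairs lay between -0.04 and -0.01. No label says that the numbers pair libraries, and values this small do not settle it. Of the listed genes, 1346 higher and 426 lower had an absolute log2 change of at least 1, genes at 0 in 1 group included, and 2352 and 944 one of at least 0.5 with 1 FPKM added. Depth limits 70 bins with under 20 reads in at least 1 library.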

Other observations

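Some listed bins belong to no gene list and show extreme values, and they were chosen after these were seen. AT1G02305, a cathepsin B-like protease gene, had 512, 1146 and 367 spliced reads across I004 in the dark libraries of rrc1-3 and 0, 0 and 0 in red light, while boundary reads were 19.5, 23 and 35 and then 38, 29 and 29. AT5G42760 I001 showed the reverse, with 0, 0 and 0 spliced reads in the dark and 283, 362 and 501 in red light. AT2G12170 I002 was retained in 11.5%, 18% and 30.9% of reads in the dark and 72.7%, 100% and 60.8% in red light (edgeR, log2 odds 3.36, adjusted p = 0.00136). The gene scpl10, a serine carboxypeptidase-like gene, had 6 bins, of which 5 had a library without reads.

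AT2G40010 I002, in a gene of a cytosolic ribosomal protein, fell from 22.7%, 26.9% and 18.5% to 2.80%, 2.47% and 7.56% in rrc1-3. In Col-0 it fell by 2.66 in log2 odds (edgeR, adjusted p = 0.00501), beside a fall of 2.69 in rrc1-3. Both values lie close to each other, and the interaction was not called.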
